A study of Saccharomyces cerevisiae with 18 samples.

Results

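A set of 10 genes of asparagine-linked (N-linked) glycosylation was followed across all arrays of a study of DNA-damaging agents in *Saccharomyces cerevisiae*. They are *ALG14*, *ALG13*, *ALG7*, *ALG1*, *ALG2*, *ALG11*, *WBP1*, *STT3*, *OST1* and *SWP1*, and all 10 were among the 5656 genes that had a probe set of their own. *ALG14* was selected on its rise after irradiation, and the other 9 were added because their products work in the same pathway. The values after irradiation, and their difference from the drug effects, are therefore given as a description of these genes, with no p-value. Which of them met the calling thresholds after irradiation is stated beside the share of all genes that did, and supports nothing.

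N-glycosylation begins on the cytosolic face of the endoplasmic reticulum membrane, where sugars are added one after another to the lipid carrier dolichol. Alg7 attaches the first sugar, N-acetylglucosamine phosphate, and the complex of Alg13 and Alg14 attaches a further N-acetylglucosamine, with Alg13 as the catalytic subunit and Alg14 as the membrane protein that recruits it. Alg1, Alg2 and Alg11 then add mannoses, and after completion in the lumen the glycan is passed to proteins by oligosaccharyltransferase, whose catalytic subunit is Stt3 and whose other subunits include Ost1, Wbp1 and Swp1.

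Transcripts were measured on 18 Affymetrix YG-S98 arrays in 6 groups of 3 biological replicates, each from a culture of strain DBY747 (*MAT*a, with *his3*, *leu2*, *ura3* and *trp1* alleles and gals, Can1 and CUPr in its genotype) in rich YPD medium at mid-log phase. Calicheamicin at 1 nM, esperamicin A1 at 3 nM and neocarzinostatin at 4 nM, all enediyne antibiotics that cut DNA by abstracting hydrogen from its sugar, were applied for 15 min and set against methanol vehicle. Irradiated cultures received γ-radiation followed by 13 min of incubation, and were set against cultures that the labels call mock irradiated and the study's text treats as water vehicle. Every agent was dosed to leave similar survival, all exposures were at ambient temperature, and nothing in the labels places the replicates on a common day or batch. Because the enediyne concentrations differed, the effects of the 3 drugs are given side by side and were not compared with each other.

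The deposited values are intensities from the Robust Multichip Average (RMA) algorithm on a linear scale, and the fold changes below are differences of their log2 values. Calls required at least a 1.5-fold difference and an adjusted p of at most 0.1 (limma, Benjamini-Hochberg adjustment over all 5656 genes). The array medians lay between 15.3 and 16.8 intensity units, and *ALG13* was below its array's median in 11 of the 18 arrays and *ALG1* in 3, while the other 8 genes were above it in every array. The array of methanol vehicle replicate 1 stood apart: its log2 difference between the 5' and 3' actin control probe sets, a sign of RNA or cRNA quality, was -3.59, against -2.34 to -0.69 in the other 17 arrays. The esperamicin A1 arrays had the next lowest differences, from -2.34 to -1.53. With the *SPT15* control probe sets methanol vehicle replicate 1 was again lowest, at -4.40, but less far apart. Next there were esperamicin A1 replicate 3 at -4.19 and calicheamicin replicate 2 at -3.75. Values against the methanol vehicle are also given without methanol vehicle replicate 1 where leaving it out turned their sign, ended a call or moved them by more than 1.5 times. The **a**-cell genes *MFA1* and *MFA2* read from 695 to 1817 and from 1165 to 1819 intensity units, and the α-factor genes *MF(ALPHA)1* and *MF(ALPHA)2* from 11.6 to 22.1 and from 7.67 to 17.2. The **a**-cell gene *STE6*, at 5.59 to 17.9, and the α-cell gene *SAG1*, at 37.1 to 61.7, did not follow that split. Bulk RNA cannot tell fewer cells with a transcript apart from less transcript per cell.

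*ALG14* (YBR070C), which encodes the membrane anchor of the second N-acetylglucosamine transferase, was the gene that chose the list. Its intensities were 53.6, 48.4 and 34.0 in replicates 1, 2 and 3 of γ-radiation, against 22.1, 23.7 and 16.0 in mock irradiation. All 3 irradiated arrays were above all 3 mock arrays, and the lowest array of either group was replicate 3. The mean difference was 1.13 ± 0.23 on the log2 scale (SE), a fold change of 2.19, which placed *ALG14* 12th of 5656 genes by log2 fold change. Between cultures with the same replicate number the differences were 1.28, 1.03 and 1.08. *ALG14* was the only gene of the 10 called in this contrast, in which 0.902% of all genes were called, and nothing is read from that count because the contrast chose the gene. It no longer met the thresholds without γ-radiation replicate 1, at a log2 fold change of 0.998, without γ-radiation replicate 2, at 1.07, or when the γ-radiation and mock arrays were fitted alone. Over the 10 genes, *ALG14* included, the median log2 fold change was 0.18, against -0.04 over all genes. That median was 0.07 without mock irradiation replicate 3 and 0.31 without γ-radiation replicate 3. Cultures with the same replicate number deviated together in this contrast, and when each control family was blocked by that number 129 genes in place of 51 were called.

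The drugs did not give *ALG14* a change that passed the test. Its intensities were 27.0, 22.5 and 24.0 with calicheamicin, 29.3, 28.2 and 30.4 with esperamicin A1, and 34.2, 29.1 and 24.0 with neocarzinostatin, against 41.6, 23.2 and 24.4 in methanol vehicle. All 9 drug arrays lay within the range of the vehicle arrays except calicheamicin replicate 2, which was just below it, and the upper end of that range is the single array of methanol vehicle replicate 1. The mean log2 fold change over the enediynes was -0.06 ± 0.18 (SE), with a 95% confidence interval of -0.45 to 0.32 and an adjusted p of 0.972 in limma. Without methanol vehicle replicate 1 that mean was 0.20, and the separate values were 0.04 with calicheamicin, 0.30 for esperamicin A1 and 0.27 under neocarzinostatin, none of which passed the test. The γ-radiation effect minus the mean enediyne effect was 1.20 on the log2 scale with all arrays and 0.93 without methanol vehicle replicate 1, a description of the pattern for which the gene was chosen.

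**Figure D1:**
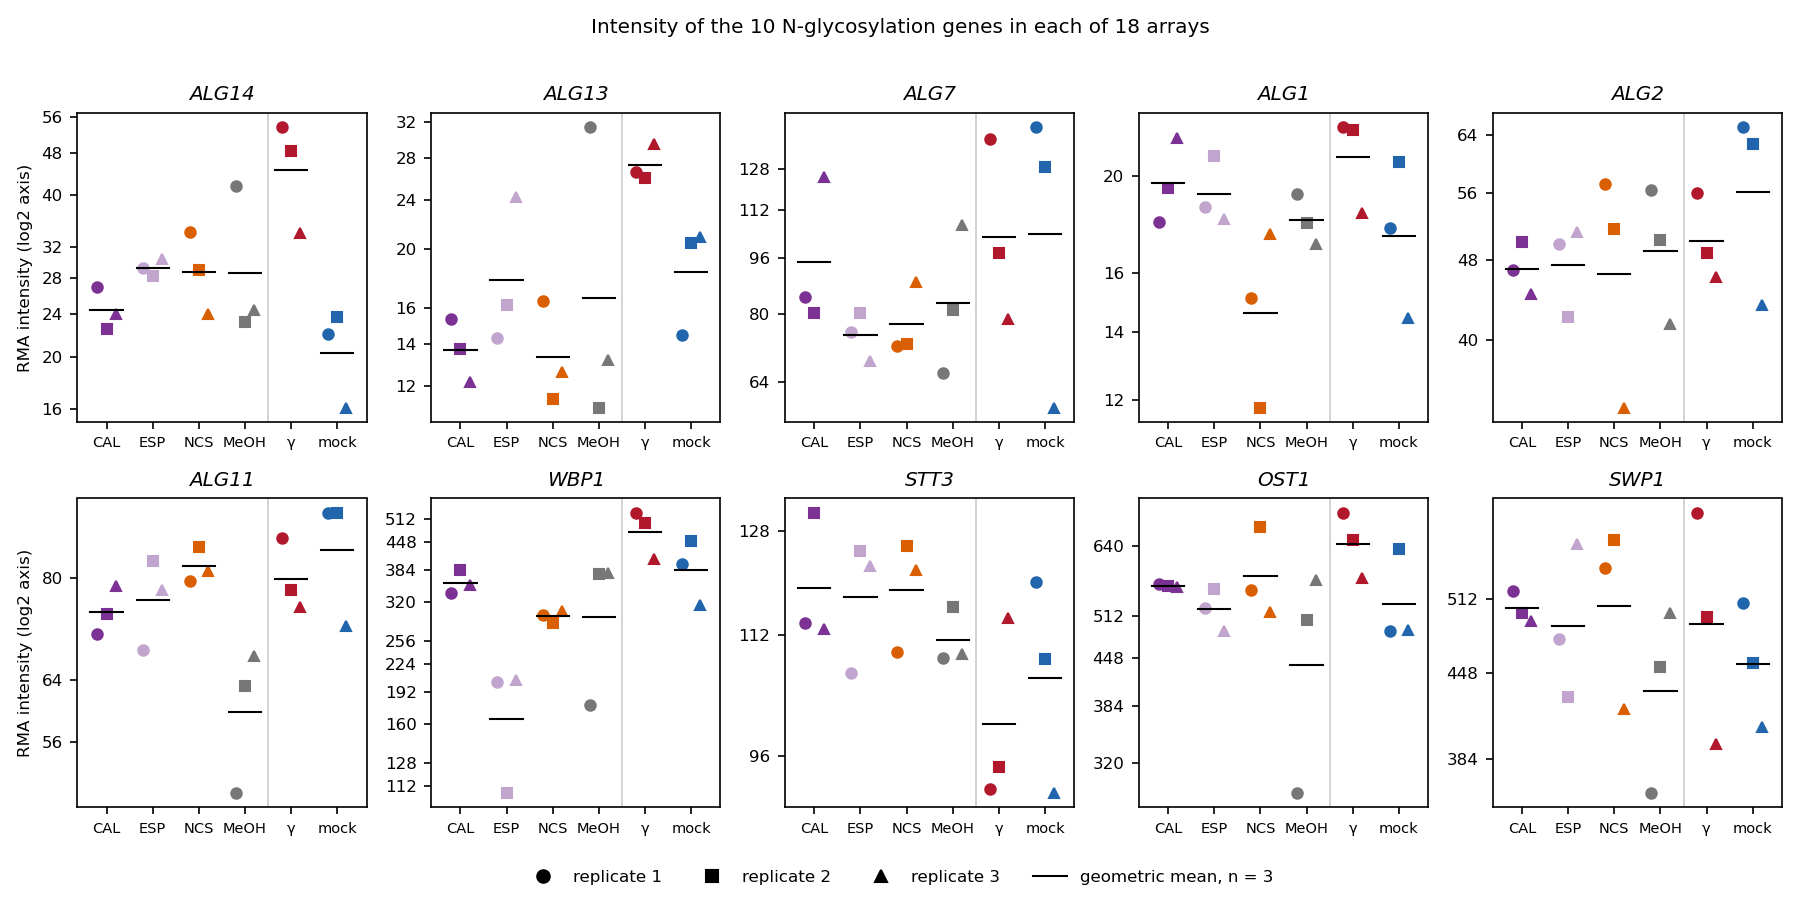
RMA intensity on a log2 axis of each of the 10 genes in every array, with calicheamicin (CAL), esperamicin A1 (ESP), neocarzinostatin (NCS) and methanol vehicle (MeOH) left of the grey line and γ-radiation (γ) and mock irradiation (mock) right of it; markers give the replicate number and bars the geometric mean of 3 arrays. The irradiated arrays stand above all other arrays for *ALG14* except methanol vehicle replicate 1 at 41.6 and neocarzinostatin replicate 1 at 34.2, both of which exceed irradiated replicate 3 at 34.0.

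Ordered by geometric mean, the levels of *ALG14* were 44.5 with γ-radiation, 29.3 with esperamicin A1, 28.8 with neocarzinostatin, 28.7 in methanol vehicle, 24.5 with calicheamicin and 20.3 in mock irradiation. Each irradiated array exceeded each esperamicin A1 array, and every other neighbouring pair in this order overlapped. Methanol vehicle stood 0.50 above mock irradiation on the log2 scale, and 0.23 above it without methanol vehicle replicate 1. No test is given for that difference, since it uses the same mock arrays that chose the gene.

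*ALG13* (YGL047W), the catalytic partner of *ALG14*, was near the middle of all genes in intensity or below it. It read 26.6, 26.0 and 29.6 with γ-radiation, against 14.5, 20.4 and 20.8 in mock irradiation. The groups did not overlap, and the log2 fold change was 0.57 ± 0.30 (SE), a fold of 1.49. *ALG13* met neither the fold nor the p threshold. By log2 fold change *ALG13* was 101st of 5656 genes. In the drug family its intensities were 15.4, 13.8 and 12.2 with calicheamicin, 14.3, 16.2 and 24.2 with esperamicin A1, and 16.5, 11.4 and 12.6 with neocarzinostatin, against 31.4, 11.05 and 13.2 in methanol vehicle. The value of 31.4, from methanol vehicle replicate 1, was the highest *ALG13* reading of all 18 arrays and was 1.38 above the mean of the other vehicle arrays on the log2 scale. The mean enediyne effect was -0.17 with all arrays and 0.29 without that array, and neither value passed the test (adjusted p of 0.952 and 0.944 in limma). For calicheamicin, esperamicin A1 and neocarzinostatin the separate effects were -0.28, 0.10 and -0.32 with all arrays. They were 0.18, 0.56 and 0.14 without methanol vehicle replicate 1, and none passed the test.

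*ALG7*, whose product starts the glycan, had the widest spread of the 10 genes among the mock arrays. Its intensities were 141.2, 97.5 and 78.6 with γ-radiation, against 147.0, 129.2 and 58.9 in mock irradiation, a log2 fold change of -0.02 ± 0.29 (SE). Replicate 3 was the lowest of both groups. With the drugs it read 84.6, 80.2 and 124.7 for calicheamicin, 75.3, 80.2 and 68.6 for esperamicin A1 and 72.0, 72.5 and 88.7 for neocarzinostatin, against 65.9, 81.0 and 106.8 in methanol vehicle. All of these groups overlapped the vehicle, and the mean enediyne effect was -0.02 (95% confidence interval -0.53 to 0.48). The effects were 0.19, -0.15 and -0.10 with all arrays and 0.02, -0.32 and -0.27 without methanol vehicle replicate 1, when their mean was -0.19.

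The mannosyltransferase genes of the cytosolic face had log2 fold changes between -0.16 and 0.26 with irradiation. *ALG1*, which adds the first mannose, read 22.3, 22.2 and 18.4 with γ-radiation, against 17.7, 20.6 and 14.5 in mock irradiation, with overlap and a log2 fold change of 0.26. Its lowest group mean was that of neocarzinostatin, whose arrays read 15.1, 11.8 and 17.5 and overlapped those of mock irradiation and methanol vehicle. Against methanol vehicle, at 19.2, 17.9 and 17.1, the log2 fold change was -0.31 and did not pass the test (limma adjusted p of 0.629). That fold change was -0.26 without methanol vehicle replicate 1. The other drug effects on *ALG1* were 0.12 with calicheamicin and 0.09 with esperamicin A1. *ALG2*, whose product adds the next mannoses, read 56.1, 48.8 and 46.2 with γ-radiation, against 65.2, 62.7 and 43.3 in mock irradiation, a log2 fold change of -0.16 with overlap. Its separate drug effects lay between -0.07 and -0.04 on the log2 scale with all arrays and between 0.03 and 0.06 without methanol vehicle replicate 1.

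*ALG11* completes the cytosolic part of the glycan with the last mannoses added on that side. It read 87.1, 77.8 and 75.1 with γ-radiation, against 92.1, 92.0 and 72.1 in mock irradiation, and its log2 fold change was -0.09. In the drug family all 9 drug arrays were above all 3 vehicle arrays. The intensities were 70.7, 73.9 and 78.5 with calicheamicin, 68.4, 82.8 and 77.9 with esperamicin A1, and 79.3, 85.4 and 81.2 with neocarzinostatin, against 50.1, 63.2 and 67.6 in methanol vehicle. The log2 fold changes were 0.31, 0.35 and 0.45, and none passed the test, the smallest adjusted p being 0.531 for neocarzinostatin (95% confidence interval 0.14 to 0.76). They were 0.19, 0.22 and 0.33 without methanol vehicle replicate 1. *ALG11* was the only one of the 10 genes without overlap in these contrasts, and the share of all genes without overlap was 9.28% in the calicheamicin contrast, 7.07% in that of esperamicin A1 and 11.5% in that of neocarzinostatin. The 3 contrasts share the same vehicle arrays, of which replicate 1 was the lowest *ALG11* reading of all 18 arrays. Methanol vehicle was also below mock irradiation without overlap, by -0.50 on the log2 scale with a limma adjusted p of 0.0476. That difference, a fold of 0.705, stayed short of the fold threshold and was not called, and it was -0.38 with an adjusted p of 0.150 without methanol vehicle replicate 1. Of all genes, 23.1% did not overlap between the controls.

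**Figure D2:**
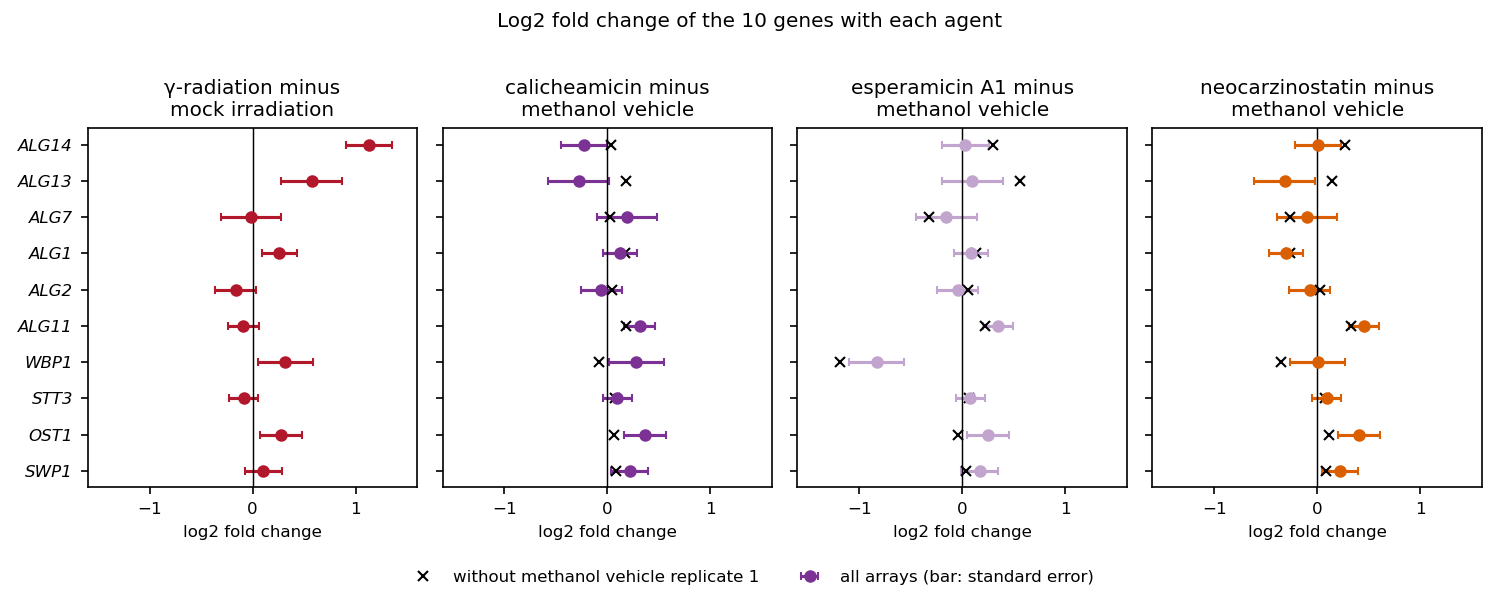
Log2 fold change with its standard error (horizontal axis) of the 10 genes for γ-radiation minus mock irradiation and for each enediyne minus methanol vehicle (filled points), with crosses for the drug contrasts without methanol vehicle replicate 1. *ALG14* at 1.13 lies farthest to the right after irradiation, *ALG11* lies between 0.31 and 0.45 with every drug, and *WBP1* with esperamicin A1 lies at -0.83, or at -1.19 without that vehicle array.

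Among the subunits of oligosaccharyltransferase, *STT3* held the narrowest range of the 10 genes, from 91.5 to 131.0 over all arrays. It read 92.0, 94.7 and 114.5 with γ-radiation, against 119.9, 108.6 and 91.5 in mock irradiation, a log2 fold change of -0.09. Its drug effects were 0.09, 0.08 and 0.09 with calicheamicin, esperamicin A1 and neocarzinostatin.

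*WBP1*, an essential subunit of the complex, had the widest range, from 107.7 to 530.7. With γ-radiation it read 530.7, 498.7 and 408.7, against 395.4, 450.3 and 313.2 in mock irradiation, a log2 fold change of 0.32 with overlap. The esperamicin A1 arrays read 202.3, 107.7 and 204.9, against 178.3, 374.7 and 377.1 in methanol vehicle. The 4 lowest *WBP1* readings of all 18 arrays were those of the 3 esperamicin A1 arrays and methanol vehicle replicate 1. The log2 fold change with esperamicin A1 was -0.83 (95% confidence interval -1.40 to -0.27) and did not pass the test, with an adjusted p of 0.999 in limma. Without methanol vehicle replicate 1 it was -1.19 with an adjusted p of 0.0830, and *WBP1* was then called, 1 of 7 genes called in that fit. Without esperamicin A1 replicate 2 it was -0.53. The same 4 arrays had the lowest actin 5' minus 3' differences, from -3.59 to -1.53. By the *SPT15* difference they were not the lowest 4. There calicheamicin replicate 2, at -3.75, was below esperamicin A1 replicates 1 and 2, at -3.67 and -3.59. With the actin difference as a covariate the esperamicin A1 effect was -0.79, not called, and the part of the actin difference in the *WBP1* values was otherwise not tested. With calicheamicin *WBP1* read 336.2, 382.1 and 351.6, and with neocarzinostatin 296.1, 283.4 and 304.2, log2 fold changes against methanol vehicle of 0.28 and 0.01 with all arrays. Both had the other sign without methanol vehicle replicate 1, at -0.08 and -0.35, and neither passed the test.

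*OST1* and *SWP1*, which encode further subunits, were lowest of all arrays in methanol vehicle replicate 1. *OST1* read 711.3, 651.7 and 577.1 with γ-radiation, against 487.0, 632.6 and 489.3 in mock irradiation, a log2 fold change of 0.28 with overlap. In the drug family it read 566.0, 562.8 and 561.1 with calicheamicin, 524.9, 556.7 and 488.0 with esperamicin A1 and 556.0, 680.1 and 517.7 with neocarzinostatin, against 290.7, 505.1 and 573.3 in methanol vehicle. The separate effects were 0.36, 0.25 and 0.41, and without methanol vehicle replicate 1 they were 0.07, -0.04 and 0.11. *SWP1* read 598.0, 495.2 and 394.6 with γ-radiation, against 508.1, 456.4 and 406.5 in mock irradiation, a log2 fold change of 0.10 and full overlap. In methanol vehicle it read 360.8, 452.5 and 499.4. Its drug effects were 0.22, 0.17 and 0.22 with all arrays and 0.08, 0.04 and 0.09 without methanol vehicle replicate 1.

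None of the 10 genes was called for calicheamicin, esperamicin A1, neocarzinostatin or the mean of the enediynes, and limma called 0% of all genes in each of these contrasts. At an unadjusted p under 0.05 there were 220, 207, 464 and 324 genes, of which 1, 2, 1 and 1 were among the 10: *ALG11* in each contrast, and *WBP1* also for esperamicin A1. The median log2 fold changes of the 10 genes were 0.16, 0.08, 0.01 and -0.03, against 0.05, 0.04, 0.04 and 0.04 over all genes. Those of the 10 genes were 0.07, 0.06, 0.08 and 0.06 without methanol vehicle replicate 1. The local pooled error test, a test for few arrays that borrows its spread from genes of like intensity, called 4, 4 and 9 genes for the 3 drugs and none of the 10. The study's own calls came from this kind of test, after leaving out transcripts absent in all experiments. It reported more changed genes for each drug than the version used here, and the reason was not tested. Between the controls, methanol vehicle minus mock irradiation, 8.68% of all genes were called and again none of the 10. The median of the 10 genes there was -0.17, against -0.05 over all genes, and -0.01 without methanol vehicle replicate 1. For the γ-radiation effect minus the mean enediyne effect 0.336% of all genes were called. The arrays of γ-radiation and mock irradiation did not overlap for 14.7% of all genes, and 6.17% of all genes were higher in every irradiated array, which was the case for *ALG14* and *ALG13* among the 10.

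**Figure D3:**
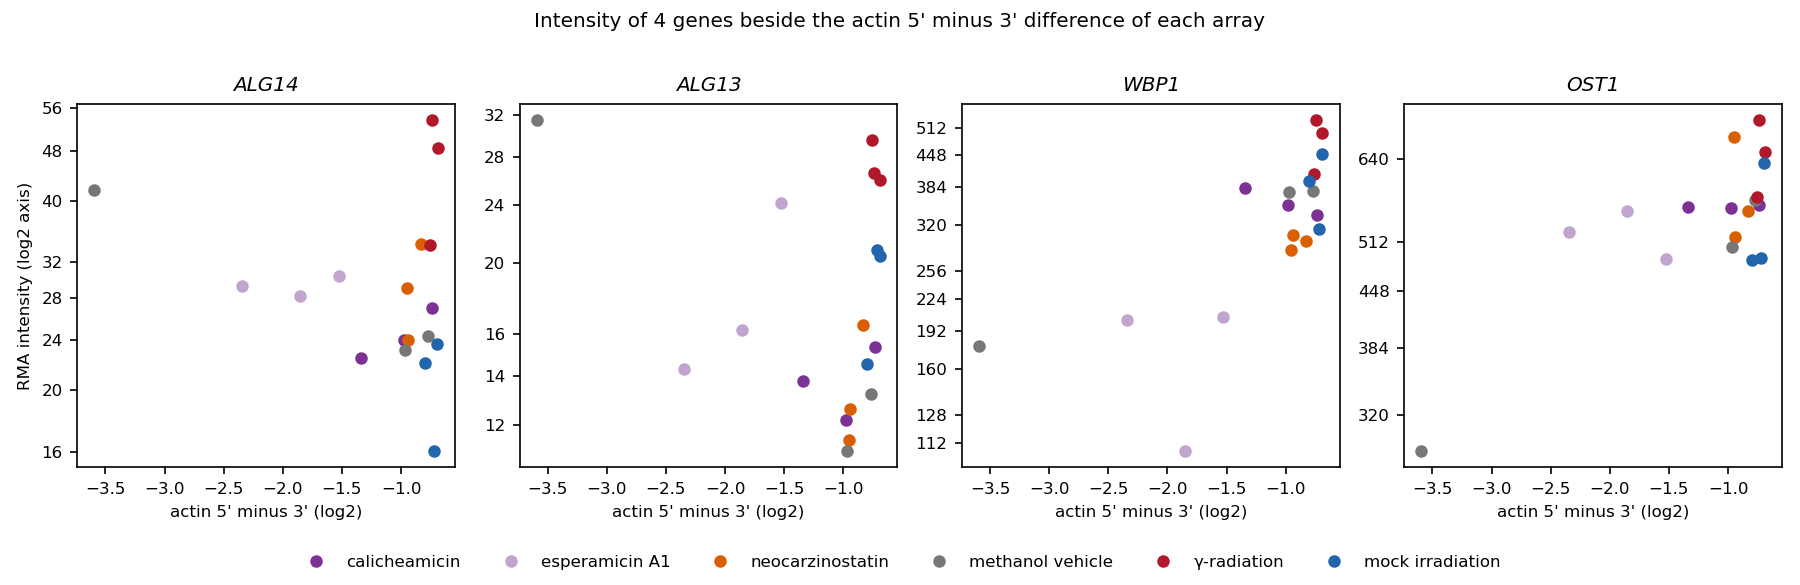
RMA intensity (log2 axis) of *ALG14*, *ALG13*, *WBP1* and *OST1* against the actin 5' minus 3' difference of the same array (log2), coloured by group. Methanol vehicle replicate 1, at -3.59, is the far left point, high for *ALG14* (41.6) and *ALG13* (31.4) and low for *WBP1* (178.3) and *OST1* (290.7).

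Methanol vehicle replicate 1 was the highest or lowest of all 18 arrays for 4 of the 10 genes, against 33.9% of all genes. It was highest for *ALG13* and lowest for *ALG11*, *OST1* and *SWP1*. Compared with the mean of vehicle replicates 2 and 3 it differed by 0.81 for *ALG14*, 1.38 for *ALG13*, -1.08 for *WBP1*, -0.89 for *OST1*, -0.40 for *SWP1* and -0.05 for *STT3* on the log2 scale. The difference was 0.30 for *ALG2*, 0.13 for *ALG1*, -0.38 for *ALG11* and -0.50 for *ALG7*. That array was thus higher for 4 of the 10 genes and lower for 6. The median absolute difference was 0.45 for the 10 genes, against 0.37 over all genes, and nothing about the pathway is read from it. The part of RNA quality in this was not tested.

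The genes most like *ALG14* were found by Pearson's r of log2 intensities over the 18 arrays, which share their 6 groups, so that r is given as a description. The 8 highest were *HYR1* (0.93), which encodes a glutathione peroxidase-like sensor of peroxide, *DIN7* (0.89), a damage-inducible mitochondrial nuclease, *YJL068C* (0.86), an esterase, *CAC2* (0.85), a subunit of chromatin assembly factor, *PLM2* (0.82), a forkhead-associated domain protein, *RFA3* and *RFA1* (both 0.81), subunits of the single-stranded DNA binding protein RPA, and *SHC1* (0.80), an activator of chitin synthesis in sporulation. The median r over all other genes was -0.03. Their log2 fold changes with γ-radiation lay between 0.46 for *DIN7* and 1.82 for *PLM2*. Since likeness to a gene chosen for its rise after irradiation selects such values, no test of them is given.

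*HYR1* read 285.7, 288.6 and 198.8 with γ-radiation, against 148.3, 159.7 and 141.5 in mock irradiation, with the same low replicate 3 as *ALG14*. In methanol vehicle it read 239.4, 168.8 and 189.9, again with replicate 1 high. Without the γ-radiation group r with *ALG14* was 0.86 for *HYR1* (12th highest of all genes), 0.85 for *YJL068C* (16th), 0.82 for *CAC2* (29th) and 0.75 for *DIN7* (101st). For the other 4 it was between 0.53 and 0.57, at ranks from 485th to 581st. Without methanol vehicle replicate 1 the 8 genes had r from 0.80 to 0.92.

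The partners in the pathway were less like it. *ALG13* had r = 0.59 with *ALG14*, the 80th highest of all genes. That r was 0.35 (1199th) without the γ-radiation group and 0.82 (47th) without the mock irradiation group. Next came *ALG1* at 0.37, *ALG2* at 0.26 and *SWP1* at 0.22, while *ALG7*, *OST1*, *WBP1*, *ALG11* and *STT3* lay between 0.10 and -0.33. *OST1* depended on 1 array: its r with *ALG14* was 0.10 over 18 arrays and 0.66 over the 17 without methanol vehicle replicate 1, where it was the 55th highest of all genes and above *ALG13* at 0.53. Within groups, with each group mean removed, *ALG2* had the highest r with *ALG14* of the 9 over all arrays, 0.73, and 0.74 without that array. *SWP1* had 0.26 over all arrays and 0.80 without it, then the highest of the 9. *ALG13* went the other way, from 0.54 over all arrays to 0.04 without methanol vehicle replicate 1.

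**Figure D4:**
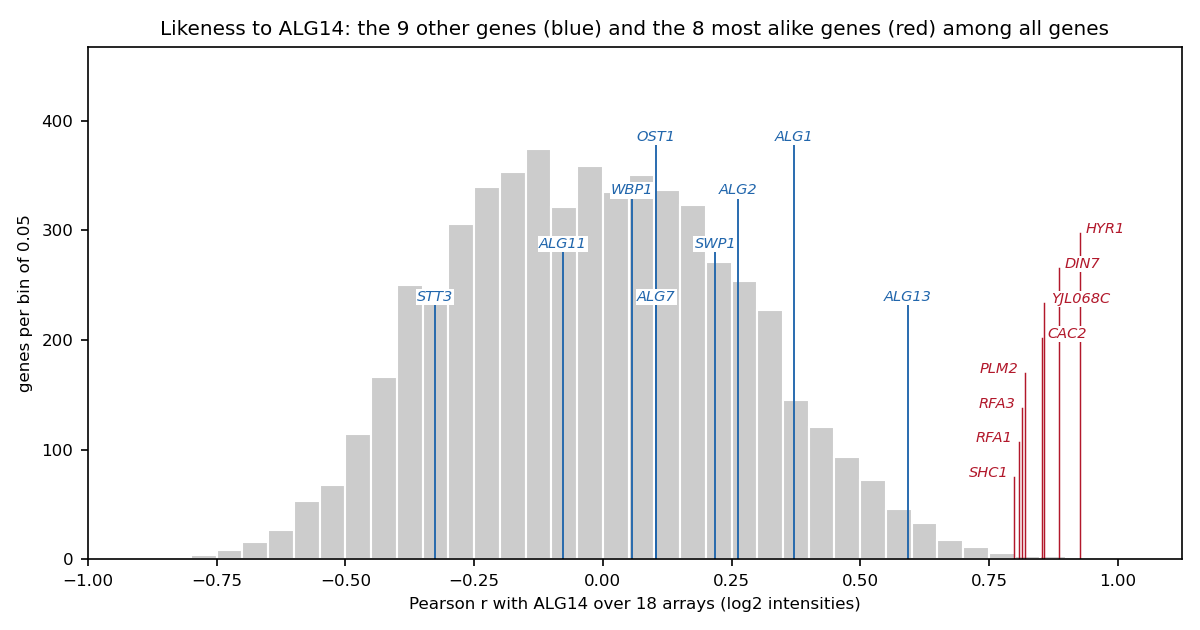
Number of genes (vertical axis) by Pearson's r with *ALG14* over 18 arrays (horizontal axis, bins of 0.05), with blue lines for the other 9 glycosylation genes and red lines for the 8 most alike genes. *ALG13* at 0.59 lies nearest to the red lines, which span 0.80 to 0.93, and *STT3* at -0.33 lies farthest from them.

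Over the 45 pairs among the 10 genes the median r was 0.10, against 0.01 over all pairs of genes, and 31 pairs (68.9%) were above 0, against 51.3% of all pairs. The highest were *ALG11* with *OST1* at 0.73 and *OST1* with *SWP1* at 0.62, and the lowest was *ALG13* with *STT3* at -0.50. Without methanol vehicle replicate 1 these first pairs had r of 0.37 and 0.40, the median over the 45 pairs was 0.21, and 35 pairs (77.8%) were above 0, against 51.4% of all pairs. Within groups *ALG7* and *ALG11* had the highest r, 0.80 with all arrays and 0.82 without that array.

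On the chromosome, the 5 measured genes on each side of *ALG14* in the RefSeq gene order of assembly R64 are *ECM2*, *NRG2*, *TIP1*, *BAP2* and *TAT1* before it and *YBR071W*, *HSP26*, *RDH54*, *PFF1* and *ECM8* after it. None of the 10 was called for γ-radiation, against 0.902% of all genes, and 4 had a log2 fold change above 0. The nearest genes were *TAT1*, an amino acid permease, at -0.27 and *YBR071W* at 0.69 (limma adjusted p of 0.609), and *HSP26*, a small heat shock protein, stood at 1.03 with an adjusted p of 0.548. Between the controls, methanol vehicle against mock irradiation, 3 of the 10 neighbours were called, against 8.68% of all genes. *TIP1*, a cell wall mannoprotein, fell by 2.02 on the log2 scale (limma adjusted p of 0.00183). The permease gene *BAP2* fell by 0.67 (0.0817) and *TAT1* rose by 0.74 (0.0792). *BAP2* was no longer called without methanol vehicle replicate 1, at -0.40 with an adjusted p of 0.280.

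**Figure D5:**
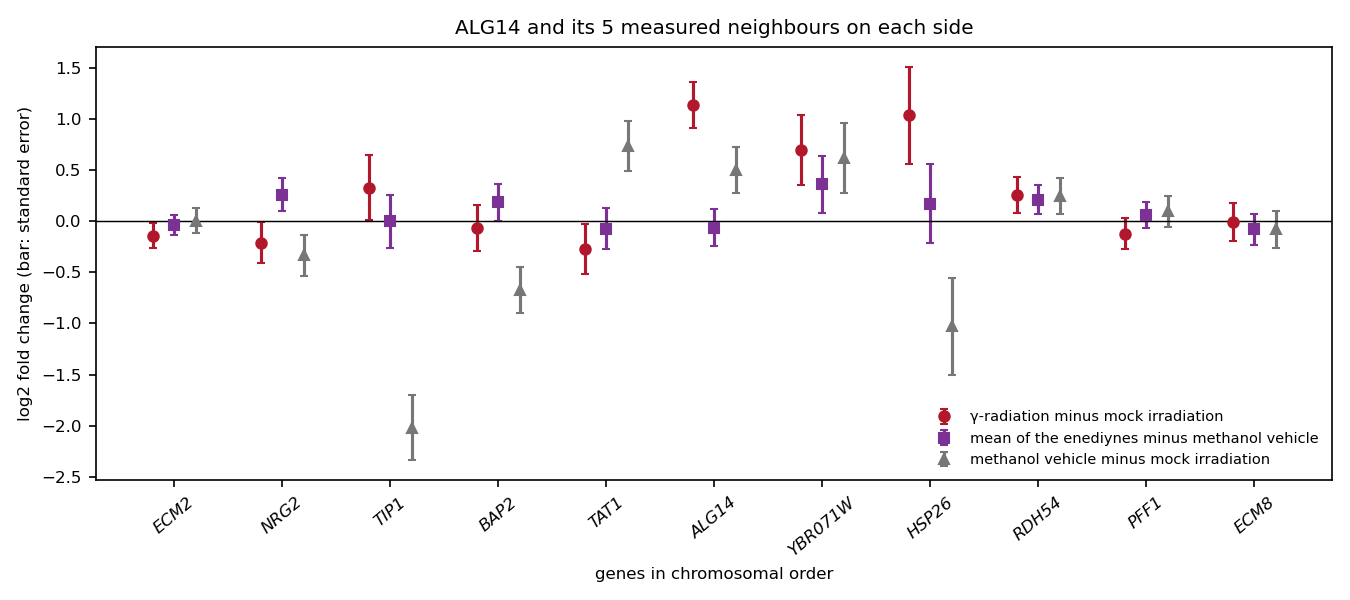
Log2 fold change with its standard error (vertical axis) of *ALG14* and the 5 measured genes on each side in chromosomal order, for γ-radiation minus mock irradiation, the mean of the enediynes minus methanol vehicle, and methanol vehicle minus mock irradiation. *ALG14* at 1.13 and *HSP26* at 1.03 are the highest irradiation values, and *TIP1* at -2.02 between the controls is the lowest of all.

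The wider pathway was read from 7 lists with 85 further measured genes of glycosylation and endoplasmic reticulum folding. None of the 85 was called for γ-radiation, against 0.902% of all genes, with a median of -0.02 and 38 above 0. Nor was any called for the mean of the enediynes, against 0% of all genes. The median there was 0.04, and -0.04 without methanol vehicle replicate 1. With esperamicin A1 none was called over all arrays and 1, *GPI12*, was called lower without that array, where 7 of 5656 genes were called. The 16 genes that supply dolichol and sugar donors had a median of -0.01 with γ-radiation and a largest value of 0.37 for *GFA1*, the enzyme that feeds the hexosamine pathway. The 6 genes of lumenal glycan assembly had a median of 0.08, with the mannosyltransferase gene *ALG3* at 0.41. The 5 other oligosaccharyltransferase subunits had a median of -0.10 and lay between -0.21 and 0.04. The 14 genes of trimming and quality control had a median of -0.02 and the 18 Golgi mannosyl extension genes a median of -0.10.

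The unfolded protein response and folding list of 14 genes had a median of 0.06 with γ-radiation. Its co-chaperone gene *JEM1* had a log2 fold change of 0.58 with a limma adjusted p of 0.0482 and fell just short of the 1.5-fold threshold. Among the 12 genes of O-mannosylation and GlcNAc transfer to GPI anchors, the protein mannosyltransferase gene *PMT3* was highest at 0.68 and did not pass the test (adjusted p of 0.334). Between the controls 5 of the 85 genes (5.88%) were called, against 8.68% of all genes. *KTR2* rose by 1.22 and *PMT3* by 0.82 in methanol vehicle relative to mock irradiation, and *UGP1*, *ALG5* and *DPM1*, which make or load activated sugars, fell by 1.01, 0.72 and 0.68. Of these 5, *KTR2* and *UGP1* alone were called without methanol vehicle replicate 1.

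For setting *ALG14* beside genes known to respond to DNA damage, 7 genes of the damage signature and the Dun1 checkpoint kinase pathway were measured. Of these, 5 rose with γ-radiation: *RNR3* by 3.64, *HUG1* by 1.72, *RNR2* by 1.10, *DUN1* by 0.96 and *RNR4* by 0.78 on the log2 scale, and the median of the 7 was 1.07. *RNR1* at 1.07 and *RAD54* at 0.48 were above 0 and did not pass the test. The share of all genes called in this contrast was 0.902%. Nothing is read from the 5 calls, because the list was chosen with earlier results of these data known. *ALG14* itself belongs to that signature under its systematic name, YBR070C, in the study's text, and is not one of the 7. With the mean of the enediynes none of the 7 was called. Their median there was 0.22, and 0.09 without methanol vehicle replicate 1, against -0.06 and 0.20 for *ALG14*. Between the controls 2 of the 7 were called lower in methanol vehicle than in mock irradiation, where 8.68% of all genes were called. These were *HUG1*, at -1.21 with all arrays, and *RNR4*, at -0.94 (limma adjusted p of 0.00362). Without methanol vehicle replicate 1 *HUG1*, at -1.35 (0.0103), and *RNR4*, at -0.89 (0.0110), were again called lower.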

How the data were processed

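The authors hybridised biotinylated cRNA of each culture to 1 YG-S98 array, normalised the arrays with RMA (background correction, quantile normalization and probe set summary) and deposited the intensity of 9335 probe sets on a linear scale. The genome build behind the probe sets is not given in the sources used here. Coordinates served only to order the genes around *ALG14*. The irradiated cultures had received 210 Gy. The log2 of the intensities was taken with no further scaling. Of the probe sets 60 were controls, 6504 matched 1 gene symbol, 328 several and 2443 none, and the probe set with the highest mean represented each of 5656 genes, with no filter on Absent/Present calls. Each of the 10 genes had 1 probe set. Background was not measured for single probe sets.

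All contrasts came from 1 linear model of the 6 groups (limma 3.58.1 under R 4.3.3; functions lmFit and eBayes), with 12 degrees of freedom left for the residuals and standard errors of log2 fold changes whose median was 0.197. Errors are limma's moderated standard errors and intervals are 95%. With 3 arrays against 3 an exact permutation test of a single gene cannot go below p = 0.1 (two-sided), so none was used, and precision is limited by the number of arrays. Replicate number was no term of the model. Residuals of arrays with the same number correlated at 0.65, 0.50 and 0.67 for γ-radiation with mock irradiation, at 0.17, 0.13 and 0.40 for calicheamicin, at 0.37, 0.18 and 0.12 for neocarzinostatin and at 0.19, 0.35 and -0.09 for esperamicin A1 with methanol vehicle. The numbers come from the sample titles and the pairing only from these values. The fit was tested on simulated data with known changes and noise drawn independently for each array. Those data held no replicate pairing and no outlying array, so they do not bear on either.

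The genes and lists were chosen with earlier results of these data known. The genes named are the 10, the 8 most like *ALG14*, its 5 measured neighbours on each side, every called gene of a list, and otherwise the list gene with the smallest p. The alternatives were cyclic loess, centring on array medians, leaving out the dimmest 25% of genes, an intensity trend, replicate number as a block, other thresholds, fits of only the compared groups, other probe set rules, the local pooled error test (written after its description), the actin difference as a covariate and leaving out each array. Likeness, lists and neighbours without methanol vehicle replicate 1 were added after seeing the data.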

Additional observations from a re-analysis of the deposited data

Results flagged for a closer look

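Differences between the γ-radiation effect and the mean enediyne effect passed the test in the same limma model for 5 genes of the damage list, which were set beside *ALG14*. That list was chosen with earlier results of these data known. In the study's text the damage signature was first defined from responses that included γ-radiation. The p-values of these genes are therefore given as a description. On the log2 scale the irradiation effect was larger by 3.005 for *RNR3* (adjusted p of 0.00065), 1.76 for *HUG1* (0.0317), 1.05 for *RNR4* (0.0646), 0.88 for *RNR2* (0.0680) and 0.87 for *DUN1* (0.0680). Without methanol vehicle replicate 1 only *RNR3* of these 5 passed the test, at 2.97 (adjusted p of 0.00328), and the other 4 had differences of 1.63 (*HUG1*), 1.10 (*RNR4*), 0.93 (*RNR2*) and 0.91 (*DUN1*) with adjusted p from 0.119 to 0.128. *HUG1* and *RNR4* were also called lower in methanol vehicle than in mock irradiation, the controls behind these differences. That held with all arrays and without methanol vehicle replicate 1. The groups hold 3 arrays each, which is too few for a test of single outlying arrays.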

How the results depend on the processing

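The number of the 10 genes called changed in few settings. For γ-radiation it was 0 in place of 1 when the compared groups were fitted alone and 0 to 1 when leaving out 1 array, and the *ALG14* value stayed between 0.96 and 1.33. For esperamicin A1 it was 0 to 1 when leaving out 1 array, with 1 (*WBP1*) without methanol vehicle replicate 1. For methanol vehicle against mock irradiation it was 1 (*ALG11*) in place of 0 with no fold threshold, and 0 to 1 when leaving out 1 array: *ALG11* was called at -0.59 without methanol vehicle replicate 3 and at -0.62 without mock irradiation replicate 3. For calicheamicin, neocarzinostatin and the mean enediyne effect it was 0 in every setting run. For the γ-radiation effect minus the mean enediyne effect, *ALG14* was not called in the main fit. There it was called with cyclic loess, with either replicate block and without γ-radiation replicate 3. Nothing is read from those calls, because the gene was chosen for its rise after irradiation. Of 1480 values of the 10 genes under an alternative, 79 that were called in neither setting changed sign. With the replicate block within each control family γ-radiation called 129 genes and 1 of the 10 (*ALG14*). No replicate block changed a call of the 10 in the contrasts of γ-radiation or the drugs with their own control. For γ-radiation 51 genes were called with all arrays in the model of 6 groups, 17 with the compared groups alone and 23 without γ-radiation replicate 2. Between the controls 491 were called, and 89 with those groups alone, 157 by the local pooled error test, 311 with the actin covariate and 291 without mock irradiation replicate 2. For the difference between irradiation and the drugs 19 were called, 48 with the replicate block within families, 29 over all probe sets, 5 at an adjusted p of 0.05 and from 4 to 20 when leaving out 1 array. The cause of these shifts was not tested. The block within families was not run between the controls, which lie in different families, and the local pooled error test compares 2 groups and was not run for the mean or the difference.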
